A study of Mus musculus with 8 samples.

Results

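Cells of the mouse intestine that were bright for a green fluorescent reporter of Lgr5 were compared with cells that were dim for it. Of the 8 arrays of the series, the 4 that carry sorted cells were used, chosen by their titles, and the other 4, which carry Ascl2-deleted epithelium, enter only where they are named. The cells came from Lgr5-EGFP-ires-CreERT2 mice, in which the fluorescent protein is made from the Lgr5 locus itself, so bright (GFPhi) and dim (GFPlo) cells carried the same reporter allele and came out of the same animals. There were 2 sorts, each pooling 3 mice, and each gave 1 GFPhi and 1 GFPlo RNA. Both RNAs of a sort were labelled with different dyes and hybridised together on 2 arrays with the dyes swapped. The first array of each sort has GFPhi in Cy3 and the second has it in Cy5. The 2 arrays of a sort share their RNA and were averaged, so n = 2 sorts throughout, and the sorts are the replicates. Ages, sex and the gates of the sort are not given in the sources used here. Where the deletion is set beside the sorts, it is RNA of intestinal epithelium of Ah-Cre animals whose 2 Ascl2 copies are floxed, set over RNA of Ah-Cre animals that have 1 floxed and 1 wild-type copy, 3 and 5 days after induction, with 1 RNA pair per day on 2 dye-swapped arrays.

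Lgr5 encodes a receptor for R-spondins, secreted proteins that strengthen Wnt signalling, and it marks the slender dividing stem cells wedged between Paneth cells at the base of each crypt. These cells renew the epithelium. Their daughters move up the crypt, divide further, and take on either the absorptive fate of enterocytes or a secretory fate as goblet, enteroendocrine, Paneth or tuft cells. The reporter protein is long-lived, so daughters that leave the crypt base carry it at a lower level than the stem cells. Wnt signals through beta-catenin and its TCF partners keep the crypt base program on, and Notch signals between neighbours hold cells back from the secretory fate, which the transcription factor Atoh1 opens. The comparison asks which genes are set apart between the stem cells and the cells nearest to them.

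Lgr5, the gene that carries the reporter, was the highest of all named genes and checks the labels of the arrays. All values below are log2 ratios of GFPhi over GFPlo, so a value of 1 is a level 2-fold higher in GFPhi and a value below 0 is a lower level. Lgr5 stood at 1.997 and 2.21 on the arrays of sort 1 and at 2.48 and 2.66 on those of sort 2. The ratio was high on all 4 arrays and a little higher in sort 2. Its mean was 2.33 ± 0.33 (SD, n = 2 sorts), which is 5.04-fold (SE 0.12, limma adjusted p = 4.4e-05). In build mm8 of the mouse genome its probe covers bases 114855901 to 114855960 of chromosome 10 (minus strand). The other 3 marker genes of the bright cells were high on every array as well. Sp5, a Wnt-induced zinc finger factor, was at 1.27 and 1.71 in sort 1 and at 1.49 and 1.35 in sort 2. Gkn3, which encodes a gastrokine, was at 1.36 and 1.54 in sort 1 and at 1.75 and 1.17 in sort 2. Ephb3 encodes a receptor that holds cells at their place along the crypt by repulsion from ephrins. It was at 1.43 and 1.20 in sort 1 and at 1.48 and 1.23 in sort 2. These 3 genes had means of 1.46, 1.46 and 1.33, between 2.52-fold and 2.74-fold, and SDs between the sorts of 0.0483, 0.0069 and 0.0318 in that order. Because the cells were gated on a reporter of Lgr5, the rise of Lgr5 is a check of the sort and not a finding.

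Promoter sequences are shown for 4 of the 6 highest genes. Crypt base genes are commonly read as targets of TCF factors, and the letters can be looked at directly. Lgr5 has no entry in the promoter table used here, and Acot1 is not shown. The sequences are RefSeq's (assembly GRCm38.p6, a later build than that of the probe positions) and give the 250 bases before the annotated start, 5′ to 3′ on the strand of the gene. Capitals mark the letters CTTTGAT or CTTTGAA on either strand, the usual core of a TCF motif. The promoter table used here holds 2 start sites for Tnfrsf19 and was matched by gene symbol.
Sp5, chr2:70474673-70474922, plus strand: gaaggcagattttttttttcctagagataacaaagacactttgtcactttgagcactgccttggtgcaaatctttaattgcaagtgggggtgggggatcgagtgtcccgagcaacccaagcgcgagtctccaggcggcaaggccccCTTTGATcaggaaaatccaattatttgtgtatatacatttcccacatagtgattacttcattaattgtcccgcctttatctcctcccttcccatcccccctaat
Tnfrsf19, chr14:61046856-61047105, minus strand: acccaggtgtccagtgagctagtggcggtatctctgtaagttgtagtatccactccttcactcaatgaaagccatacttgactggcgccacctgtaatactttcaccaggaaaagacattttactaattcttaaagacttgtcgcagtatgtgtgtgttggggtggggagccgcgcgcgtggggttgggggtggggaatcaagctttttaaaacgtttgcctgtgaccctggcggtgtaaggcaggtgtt
Tnfrsf19, chr14:61037988-61038237, minus strand: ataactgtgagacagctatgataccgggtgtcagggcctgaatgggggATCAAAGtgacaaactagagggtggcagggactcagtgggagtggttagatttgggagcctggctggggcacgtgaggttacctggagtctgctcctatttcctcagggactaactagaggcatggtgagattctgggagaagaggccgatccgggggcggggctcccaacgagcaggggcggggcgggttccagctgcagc
Ephb3, chr16:21204545-21204794, plus strand: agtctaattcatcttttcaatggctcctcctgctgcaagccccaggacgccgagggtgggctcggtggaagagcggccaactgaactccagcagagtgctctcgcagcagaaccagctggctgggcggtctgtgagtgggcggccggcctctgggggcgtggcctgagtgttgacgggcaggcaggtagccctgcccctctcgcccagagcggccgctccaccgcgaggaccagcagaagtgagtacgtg
Gkn3, chr6:87388936-87389185, minus strand: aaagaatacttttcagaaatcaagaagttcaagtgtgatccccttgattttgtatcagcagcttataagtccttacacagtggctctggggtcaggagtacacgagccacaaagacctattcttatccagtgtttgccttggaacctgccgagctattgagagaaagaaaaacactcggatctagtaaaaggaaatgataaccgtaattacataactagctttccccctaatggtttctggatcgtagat
Sp5 held 1 such match, the second start site of Tnfrsf19 held 1 on the opposite strand, and Ephb3 and Gkn3 held 0. Of all 27025 genes in the table, 8.63% had at least 1 match in this window at any listed start. Among genes higher in GFPhi by the test given below the share was 9.20% (47 of 511 matched of 745), among genes lower it was 6.12% (33 of 539 matched of 704), and among genes not past the test it was 6.44%. For the letters CAGCTG, an E-box of the kind that class II bHLH factors such as Ascl2 bind, the shares were 16.8%, 14.3% and 13.3%, against 14.7% of all genes in the table. Ephb3 and the second start site of Tnfrsf19 each hold CAGCTG at 1 place, in lower case above. A match of letters is a description and not a site, and a missing match says only that these letters are not in this window.

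The split between bright and dim cells was broad and of modest size. Of 10630 genes tested, 1449 passed a limma adjusted p of 0.05, which is 13.6% of them, with 745 higher in GFPhi (7.01%) and 704 lower (6.62%). To be tested, a gene had to have its brightest probe well above background in GFPhi on all 4 arrays or in GFPlo on all 4. Adjusted p values are Benjamini-Hochberg values over all genes tested, two-sided. At an unadjusted p under 0.05 there were 3041 genes, 1665 higher and 1376 lower. The largest differences were on the lower side. At least 2-fold on each of the 4 arrays were 41 genes lower in GFPhi and 11 genes higher. The 4 arrays had the same sign in 3568 genes (33.6%) and in 1336 of the 1449 past the test. The smallest difference that passed was 0.30 in size, and the 95% interval lay within 2-fold of equal for 10424 genes (98.1%). On the signals processed by the scanner software that share was 92.2%. Across the 10630 genes the mean ratios of both sorts correlated at r = 0.73, given as a description, since genes of an array share their RNA and normalization. The median ratio over all genes tested was 0.01 in each sort. These calls rest on both sorts and on the spread between the sorts alone, taken mostly from all genes tested together. Each sort alone, tested in a limma fit together with the deletion pairs, gave 0 genes past the threshold, with 169 genes (sort 2 alone) and 145 genes (sort 1 alone) at an unadjusted p under 0.05. With both sorts in that joint fit the count was also 0, with 962 genes at an unadjusted p under 0.05 and a lowest adjusted p of 0.098.

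**Figure D1:**
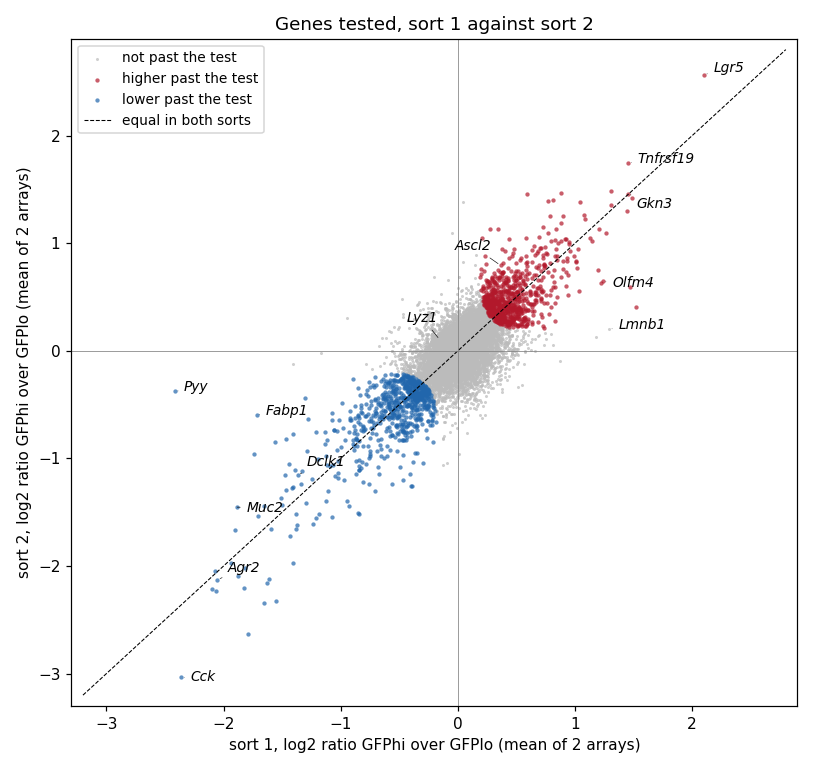
Each point is a gene tested, placed by its log2 ratio of GFPhi over GFPlo in sort 1 (x axis, mean of 2 arrays) and sort 2 (y axis, mean of 2 arrays), with genes past the limma test in red (745 higher) and blue (704 lower) and a dashed line where both sorts are equal. Lgr5 and Cck lie at the ends of the line, while Pyy and Fabp1 lie above it because their ratios were further below 0 in sort 1.

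Depth in the sense of reads does not apply here, and the number of arrays limits the precision. Between 35.5% and 44.6% of spots per channel were well above background on the sort arrays, against 55.0% to 66.9% on the deletion arrays. The dye-swapped arrays of a sort differed by a median of 0.17 per gene tested in sort 1 and 0.21 in sort 2. Over all probes, arrays with the same dye order correlated across the sorts at 0.48 and 0.43, and the dye-swapped arrays of 1 sort correlated at 0.27 and 0.32. Arrays with the same dye order were thus more alike than arrays of the same sort. A dye effect that is equal on both arrays of a swapped pair cancels in their mean, and whether it was equal was not tested. Each sort was a separate pool, and a gene's own spread between the 2 pools has 1 degree of freedom. The p values draw that spread strongly towards a value common to all genes tested (prior of 7.13 degrees of freedom).

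Genes of the crypt base led the higher side. The 20 highest named genes that passed with 1 sign on all 4 arrays ran from 1.98-fold to 5.04-fold, with no array value under 0.45, standard errors from 0.08 to 0.18 and limma adjusted p values from 4.4e-05 to 0.0075. In 14 of the 20 the ratio was larger in sort 2. After Lgr5 came Tnfrsf19, a receptor of the tumour necrosis factor family that is also called Troy. Tnfrsf19 was at 1.496 and 1.41 in sort 1 and at 1.75 and 1.74 in sort 2, a mean of 1.601 ± 0.21 (SD, n = 2 sorts) or 3.03-fold. Regulators of Wnt and BMP signalling were among the 20. Rnf43, a ubiquitin ligase that removes Wnt receptors from the membrane, was at 1.16 and 1.09 in sort 1 and at 0.99 and 1.11 in sort 2. Nkd1, an intracellular Wnt inhibitor, was at 0.72 and 0.86 in sort 1 and at 1.10 and 1.40 in sort 2. Rgmb, a BMP co-receptor, was at 1.04 and 0.72 in sort 1 and at 1.77 and 1.16 in sort 2. Rnf43 was alike on all arrays, while Nkd1 and Rgmb ran higher in sort 2.

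Other genes at this height were for the most part not in the list of crypt base stem cell genes given below, and Slc14a1 and Scn2b are in it. Acot1, an enzyme that splits fatty acyl-CoA, was at 1.33 and 1.28 in sort 1 and at 1.64 and 1.33 in sort 2, a mean 2.63-fold higher. Acot1 has near-identical neighbours in its gene family, so what its probe reads is uncertain. Rgcc, a regulator of the cell cycle, had a mean of 1.17, and Rec8, the cohesin subunit best known from meiosis, had a mean of 1.17. The 4 arrays of Rgcc lay between 1.06 and 1.25, and those of Rec8 between 1.003 and 1.40. The membrane transporters in the group were Slco3a1 (1.16), an organic anion carrier, and Slc14a1 (1.08), the urea channel. Signalling and channel genes were Gper1 (1.11), a G protein-coupled estrogen receptor, Arl4c (1.21), a small GTPase, and Scn2b (0.99), a sodium channel subunit. Pdlim2 (1.08) encodes a protein with PDZ and LIM domains and Cyp2e1 (1.08) a cytochrome P450. The Cyp2e1 spots of GFPlo were well above background on 2 of 4 arrays. Ddit4 (1.03), an inhibitor of mTOR signalling, and Fam13a (1.03) differed between the sorts and are described with them.

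**Figure D2:**
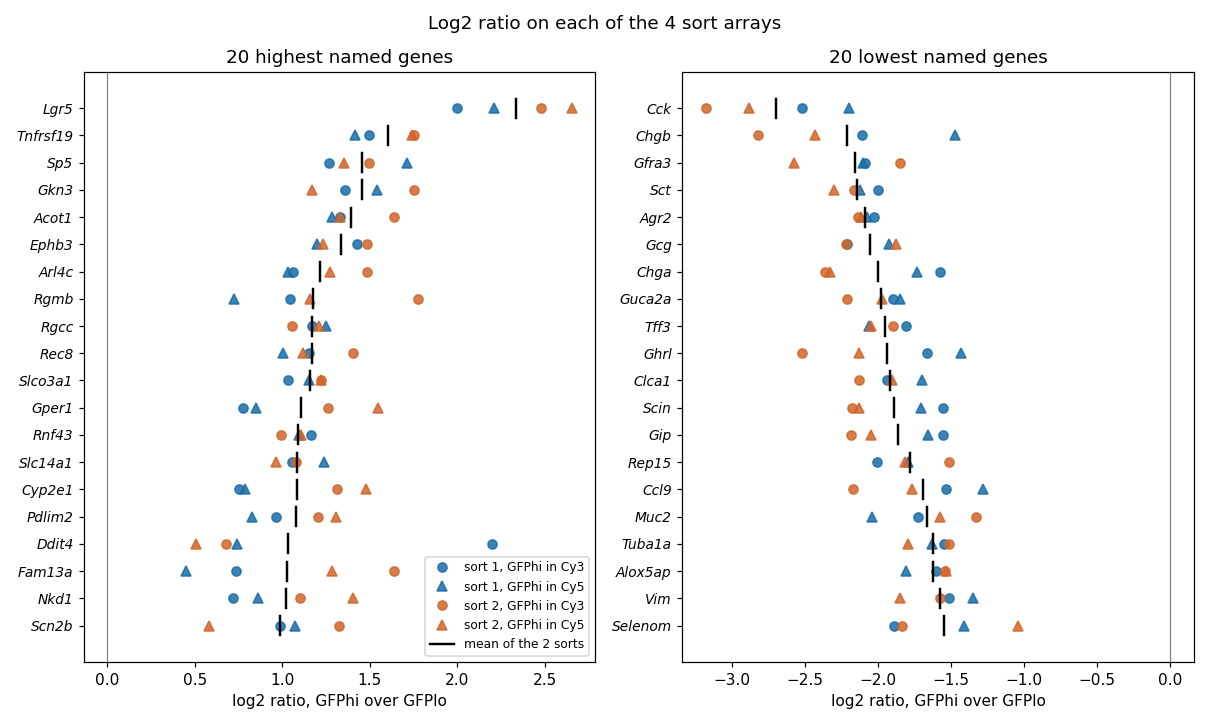
The log2 ratio of GFPhi over GFPlo (x axis) is drawn for each of the 4 sort arrays, for the 20 highest and the 20 lowest named genes past the test, with colour for the sort, symbol for the dye of GFPhi and a black bar for the mean of the 2 sorts. All array values of the 20 highest lie at 0.45 or above and all of the 20 lowest at -1.05 or below, and the single circle of Ddit4 at 2.20 lies far from its other arrays.

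Within the list of crypt base stem cell genes, 24 of 25 measured members rose and 0 fell, against 7.01% of all genes tested that rose. The list median was 0.93, with 0.88 in sort 1 and 0.91 in sort 2, where the median of all genes tested was 0.01. Part of this list was first named from cells sorted on this same reporter, and its direction is therefore no independent evidence. Olfm4, a secreted glycoprotein made in large amounts by crypt base cells, was at 1.15 and 1.32 in sort 1 and at 0.41 and 0.89 in sort 2. Its mean of 0.94 is 1.92-fold (SE 0.13, limma adjusted p = 0.0035), and both arrays of sort 2 lay under both of sort 1. Smoc2, a matricellular protein, was at 0.84 and 0.44 in sort 1 and at 0.42 and 0.45 in sort 2, a mean of 0.54. Members chosen for mention after their values were seen were Cdk6 (0.98), a cyclin-dependent kinase of early G1, Soat1 (0.94), which esterifies cholesterol, and Prom1 (0.46), a membrane glycoprotein. The member that did not pass was Msi1, an RNA-binding protein, at -0.12 (limma adjusted p = 0.399). Of the list, Znrf3 was not tested, since only 3 of its 4 GFPhi spots and 2 of its 4 GFPlo spots were well above background.

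Ascl2, the bHLH factor named in the title of the series, was higher in GFPhi by less than the genes above. It was at 0.46 and 0.27 in sort 1 and at 0.63 and 0.96 in sort 2. All 4 values were above 0 and both of sort 2 lay above both of sort 1. The mean of 0.58 ± 0.30 (SD, n = 2 sorts) is 1.49-fold (SE 0.11, limma adjusted p = 0.0134). In mm8 the Ascl2 probe covers bases 142777924 to 142777983 of chromosome 7 (minus strand). Of 10 measured bHLH partners and Id inhibitors, Ascl2 rose and 2 fell (all genes tested: 7.01% and 6.62%), at a list median of 0.06. These 2 were Id4 (-0.62), which blocks DNA binding of bHLH factors, and Atoh1, which is given with the secretory genes. Id4 spots of GFPhi were well above background on 1 of 4 arrays, and its mean was -2.61 on the signals processed by the scanner software, so its size is uncertain. The E protein genes Tcf3, Tcf4 and Tcf12, dimer partners of Ascl2, were at 0.07, 0.29 and 0.17 and did not pass.

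Targets of Wnt and beta-catenin rose in 16 of 25 measured members and fell in 0 (all genes tested: 7.01% and 6.62%). The list median was 0.55, with 0.39 in sort 1 and 0.69 in sort 2. This list shares Lgr5, Tnfrsf19, Sp5, Ephb3, Rnf43, Slc12a2 and Ascl2 with the crypt base list. Of members outside that list, Cd44, a hyaluronan receptor, was at 0.95, Sox9, a factor of crypt base and Paneth cells, at 0.89, and Myc at 0.32, all past the test and picked for mention after their values were seen. Axin2, a feedback inhibitor that is widely read as a measure of Wnt activity, was at -0.07 and 0.57 in sort 1 and at 0.24 and 0.78 in sort 2. Its mean of 0.38 passed (1.30-fold, limma adjusted p = 0.034) although 1 array lay below 0 and the Cy5 array was the higher in each sort. The cyclins Ccnd1 (-0.16) and Ccnd2 (-0.22), Cdx1 (-0.16) and Bambi (-0.23) were the members below 0, and none of these 4 passed.

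Eph receptors and ephrins differed among themselves. Of 10 measured members 4 rose and 1 fell (all genes tested: 7.01% and 6.62%), at a list median of 0.12. Besides Ephb3 the receptor Epha4 rose (0.34), as did the ephrins Efna1 (0.49) and Efna4 (0.48). Efnb2, a ligand of EphB receptors, fell by 0.48. Ephb2, the receptor that acts beside Ephb3 in the crypt, was at 0.26 and 0.14 in sort 1 and at 0.48 and -0.14 in sort 2, and its mean of 0.18 did not pass (limma adjusted p = 0.197). Of 5 measured reserve stem cell markers 2 rose and 0 fell (all genes tested: 7.01% and 6.62%). These were Lrig1 (0.76), an inhibitor of ErbB receptors, and Mex3a (0.39), an RNA-binding protein. Both are also in the crypt base list and were counted there. Hopx (0.15) and Tert (0.10) did not pass, and the list median was 0.15.

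In the Notch pathway 1 receptor rose and 2 ligands fell. Among 13 measured members 2 rose and 2 fell (all genes tested: 7.01% and 6.62%), at a list median of 0.06. Notch1, the receptor, was at 0.29 and 0.35 in sort 1 and at 0.40 and 0.54 in sort 2 (mean 0.40), and Dtx4, a ubiquitin ligase of the pathway, was at 0.73. The ligands Dll1 and Dll4 fell by 0.64 and 0.38. The 4 arrays of Dll1 lay between -0.70 and -0.59, and those of Dll4 between -0.52 and -0.11. Hes1, the classic Notch target, was at 0.13 and did not pass (limma adjusted p = 0.424).

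Genes of differentiated secretory cells were prominent among the 20 lowest named genes. The 20 lowest named genes ran from 2.92-fold to 6.49-fold lower in GFPhi, with no array value above -1.05, standard errors from 0.08 to 0.17 and limma adjusted p values from 1.9e-05 to 0.00029. Cck, the hormone cholecystokinin, was the lowest. Cck was at -2.52 and -2.20 in sort 1 and at -3.18 and -2.89 in sort 2, and both sorts were low on both arrays. The mean, -2.70 ± 0.48 (SD, n = 2 sorts), is a level 6.49-fold lower (SE 0.14, limma adjusted p = 5.2e-05). In mm8 the Cck probe covers bases 121338611 to 121338670 of chromosome 9 (minus strand).

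Of 24 measured enteroendocrine genes 22 fell and 0 rose, against 6.62% of all genes tested that fell. The list median was -1.14, with -1.05 in sort 1 and -1.24 in sort 2. The granins Chga and Chgb, which pack hormones into granules, were at -2.003 and -2.21. Chga was at -1.58 and -1.74 in sort 1 and at -2.36 and -2.33 in sort 2, so the sorts did not overlap. Other hormones were Sct (secretin, -2.15), Gcg (proglucagon, -2.06), Ghrl (ghrelin, -1.94) and Gip (gastric inhibitory polypeptide, -1.86). Gfra3, a co-receptor for artemin, was at -2.16. Chosen for mention after their values were seen, Tph1 (-1.49), the enzyme of serotonin synthesis in enterochromaffin cells, and Sst (somatostatin, -1.29) fell too. Pcsk1n (-0.13) did not pass. Of the list, 8 genes on the array were not tested, among them Neurod1 and Scg2, whose spots were well above background on 0 arrays in both RNAs.

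All 19 measured goblet cell genes fell (all genes tested: 6.62%), at a list median of -1.02 and of -1.02 in each sort. Agr2, a disulfide isomerase needed for mucin folding, was at -2.03 and -2.08 in sort 1 and at -2.14 and -2.12 in sort 2. The 4 arrays were nearly equal, and the mean of -2.09 ± 0.05 (SD, n = 2 sorts) is 4.26-fold lower (SE 0.08, limma adjusted p = 1.9e-05). Muc2, the main gel-forming mucin, was at -1.73 and -2.04 in sort 1 and at -1.33 and -1.58 in sort 2, a mean 3.18-fold lower. Tff3, a trefoil peptide that protects the mucosa, was at -1.96, Clca1, a secreted mucus metalloprotease, at -1.92 and Guca2a, the peptide guanylin, at -1.98. Ccl9 (-1.69), a chemokine, is counted with them. The smallest falls of the list were those of Retnlb (-0.44) and Creb3l1 (-0.44).

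The remaining genes among the 20 lowest belong to none of these lists or to several cell types. Scin, an actin-severing protein, was at -1.89, Rep15, a partner of Rab15, at -1.79, and Selenom, a selenoprotein of the endoplasmic reticulum, at -1.55. Tuba1a, an alpha-tubulin, was at -1.55 and -1.63 in sort 1 and at -1.52 and -1.80 in sort 2. Vim, the intermediate filament protein vimentin, was at -1.51 and -1.35 in sort 1 and at -1.58 and -1.85 in sort 2. Both genes were low on every array, and Vim spots of GFPhi were well above background on 3 of 4 arrays.

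Several transcription factors of the secretory fate fell with the products of that fate. Of 12 measured secretory progenitor genes 8 fell and 1 rose (all genes tested: 6.62% and 7.01%), at a list median of -0.41. Most of the 8 were counted in other lists already. Spdef and Creb3l1 are in the goblet list, and Neurog3 and Insm1 in the enteroendocrine list. The Notch ligands Dll1 and Dll4 are in the Notch list, and Atoh1 is in the list of bHLH partners. Spdef, a factor of goblet and Paneth cell maturation, was at -1.43 and -1.57 in sort 1 and at -1.42 and -1.45 in sort 2, a mean 2.76-fold lower. Gfi1, which acts below Atoh1, fell by 0.76 and Insm1, an enteroendocrine factor, by 0.65, with GFPhi spots well above background on 3 of 4 and 1 of 4 arrays in that order. Neurog3, the switch to the enteroendocrine fate, was at -0.46 and -0.32 in sort 1 and at -1.27 and -1.25 in sort 2, and its mean of -0.82 passed (limma adjusted p = 0.0185). For Atoh1 all 4 spots of GFPlo and 0 of the 4 of GFPhi were well above background, so that its level was at least 1.27-fold lower in GFPhi (limma adjusted p = 0.032). Sox4, which rose (0.60), is also a Wnt target, and 1 of its 4 arrays lay at -0.02.

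Of 9 measured tuft cell genes 8 fell (all genes tested: 6.62%), at a list median of -0.66, with -0.83 in sort 1 and -0.53 in sort 2. Alox5ap, which hands arachidonic acid to 5-lipoxygenase, was at -1.61 and -1.81 in sort 1 and at -1.54 and -1.54 in sort 2, a mean 3.08-fold lower. For Dclk1, the kinase that defines tuft cells, and for Alox5, 5-lipoxygenase, GFPhi gave no array well above background while GFPlo gave 4 of 4. The measured signal of Dclk1 was 2.40-fold lower in GFPhi and that of Alox5 1.71-fold lower (limma adjusted p of 0.00018 and 0.0021). Where a group is not well above background a fold is given as such a bound, from the bright group's mean against the higher of the dim signal and the lowest signal well above background on each array. Cd24a, which other crypt cells also make, was at 0.17 and did not pass. Another 7 tuft genes on the array were not tested, Pou2f3 and Il25 among them with 0 arrays well above background.

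Further genes were seen in GFPlo and not above background in GFPhi. By this bound Rimbp2, a protein of synaptic release sites, was 1.76-fold lower, and Fyb, an adaptor of immune and other cells, 1.55-fold lower. Cryba2, a crystallin gene counted with the enteroendocrine list, was 1.52-fold lower by it and Fhl1, a LIM domain protein, 1.48-fold lower in GFPhi. In all 21 genes had such a bound on the lower side and 6 on the higher side. Of the 6, Macc1 alone has a usable name, and it did not pass (at least 1.13-fold higher, limma adjusted p = 0.222).

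Paneth cells sit between the Lgr5 cells, and their genes lay close to 0. Of 17 measured Paneth cell genes 1 fell, a share near the 6.62% of all genes tested that fell, and 0 rose. All 17 means lay below 0, against 47.9% of all genes tested, between -0.48 and -0.03. The list median was -0.19, with -0.40 in sort 1 and 0.00084 in sort 2. Mmp7, the protease that activates defensins, fell by 0.48, with 1 of 4 arrays above 0. Lyz1, lysozyme, was at -0.13 and -0.18 in sort 1 and at 0.02 and 0.18 in sort 2, and its mean of -0.03 did not pass. The 95% interval of Lyz1, from -0.24 to 0.19, leaves room for small differences only. In 12 of the 17 genes the array with GFPhi in Cy5 was the higher in both sorts. The defensin gene Defa21 was at -0.995 and -0.30 in sort 1 and at -0.05 and 0.29 in sort 2. Defensin genes are near copies of each other, so the probe of a single member is uncertain.

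Enterocyte genes fell in 13 of 24 measured members and rose in 0 (all genes tested: 6.62% and 7.01%). The list median was -0.39, with -0.42 in sort 1 and -0.35 in sort 2. Rbp7 (-1.38) and Rbp2 (-1.09) bind retinol, and Rbp2 spots of GFPhi were well above background on 2 of 4 arrays. Krt20, a keratin of differentiated epithelium, was at -1.24. Sis, the sucrase-isomaltase of the brush border, was at -0.26 and -0.34 in sort 1 and at -1.10 and -0.98 in sort 2, a mean of -0.67 (limma adjusted p = 0.026). Mttp and the apolipoproteins Apoa1 and Apoa4, which load fat onto lipoproteins, fell by 0.38, 0.67 and 0.41. Apob (0.04), the brush border peptidase Anpep (-0.08) and villin Vil1 (-0.10) did not pass. Another 7 genes on the array, among them Alpi and Slc15a1, were not tested. Of 9 measured antimicrobial and acute phase genes 7 fell, at a list median of -0.44, led by Dmbt1 (-1.45), a scavenger receptor protein of mucus, and Reg1 (-1.01), with Reg3a (-0.46) and Duoxa2 (-0.60), the maturation factor of an oxidase.

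**Figure D3:**
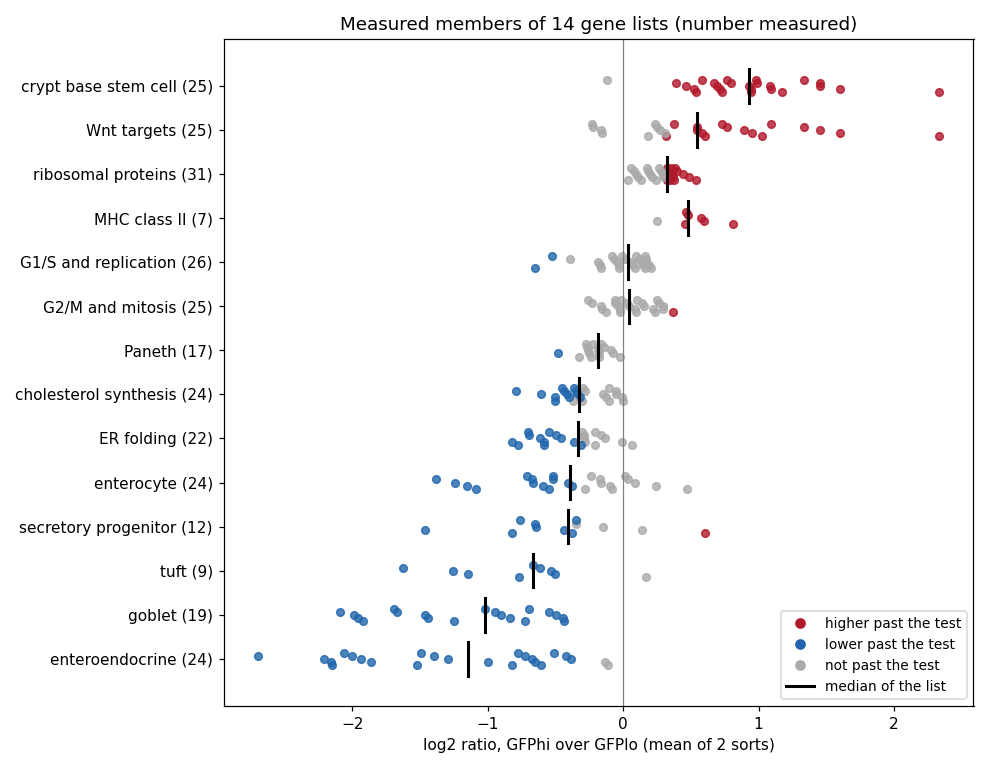
Each point is a measured member of the list named at the left, with the number measured in brackets, placed by its log2 ratio of GFPhi over GFPlo (x axis, mean of 2 sorts), red or blue where it passed the limma test and grey where it did not, and a black bar marks the median of the list. The crypt base list sits at a median of 0.93, the goblet and enteroendocrine lists at -1.02 and -1.14, and the lists of the cell cycle close to 0.

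The guanylin peptides fell in GFPhi while several genes of fluid secretion rose. Of 13 measured members 6 rose and 2 fell (all genes tested: 7.01% and 6.62%), at a list median of 0.30. The peptides Guca2a and Guca2b fell by 1.98 and 0.84. Their receptor Gucy2c was at -0.02 and did not pass. The genes that rose were Slc12a2 (0.73), the sodium, potassium and chloride cotransporter, Aqp1 (0.93) and Aqp4 (0.67), water channels, Kcnq1 (0.69) and Kcne3 (0.42), subunits of a potassium channel, and Prkg2 (0.39), a kinase activated by cyclic GMP. Aqp1 was at 1.38 and 1.07 in sort 1 and at 0.51 and 0.76 in sort 2. Slc12a2 was between 0.67 and 0.82 on all 4 arrays. The chloride channel Cftr was at 0.10 (limma adjusted p = 0.614).

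Genes of the division cycle had list medians near 0. Over all genes tested 7.01% rose and 6.62% fell. Among 26 measured genes of DNA replication and the G1 to S transition 0 rose. In this list 2 fell, a share near that of all genes, at a list median of 0.04. These 2 were Ccne1, cyclin E1 (-0.65), and Rrm2, a subunit of ribonucleotide reductase (-0.53). The list median was 0.18 in sort 1 and -0.09 in sort 2. Mcm4, a subunit of the replicative helicase, was at 0.45 and 0.57 in sort 1 and at -0.64 and -0.03 in sort 2. Among 25 measured genes of G2 and mitosis 1 rose, Cenpf (0.37), and 0 fell, at a list median of 0.04. Mki67, the proliferation marker, was at 0.49 and 0.45 in sort 1 and at 0.25 and -0.14 in sort 2. Its mean of 0.26 did not pass (limma adjusted p = 0.161), and its 95% interval ran from 0.01 to 0.52.

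Several lists of cell physiology held more genes that fell than rose, where 6.62% of all genes tested fell and 7.01% rose. Protein folding in the endoplasmic reticulum, which secretory cells need in bulk, fell in 12 of 22 measured members and rose in 0, at a list median of -0.34, led by Creld2 (-0.82), Sdf2l1 (-0.78), Pdia6 (-0.70) and Manf (-0.70). Cholesterol synthesis genes fell in 12 of 24 and rose in 0, at a list median of -0.33. Msmo1, a sterol oxidase, was at -0.62 and -0.60 in sort 1 and at -0.79 and -1.17 in sort 2. Sqle (-0.50) fell as well. Oxidative phosphorylation genes fell in only 2 of 28, a share near the 6.62% of all genes tested that fell. They were Cycs, cytochrome c (-0.51), and Cox7a2 (-0.31), and the list median was -0.18. Of 19 fatty acid oxidation and PPAR target genes 3 rose, Acot1 and the lipid droplet gene Plin2 (0.75) and Angptl4 (0.45), and 0 fell, at a list median of 0.08. The enzymes of beta-oxidation themselves, such as Acaa2 (0.29), did not pass. Of 2 measured targets of the aryl hydrocarbon receptor Nqo1 (-0.69), a quinone reductase, fell and Tiparp (-0.01) did not pass.

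Ribosomal protein genes lay above 0 in all 31 measured members, against 52.1% of all genes tested. Of these 16 rose (all genes tested: 7.01%), at a list median of 0.32. Their values followed the dyes. The list medians were 0.14 and -0.09 on the arrays with GFPhi in Cy3 and 0.37 and 0.65 on the arrays with GFPhi in Cy5, and 20 of 31 genes were higher on the Cy5 array in both sorts. Rps19 was at -0.13 and 0.77 in sort 1 and at -0.18 and 1.31 in sort 2. Of the 31 genes 8 had 1 sign on all 4 arrays. Each sort mean holds both dye orders, and the medians of the sort means were 0.30 and 0.31. On the signals processed by the scanner software the list median was 0.15, with 0.19 in sort 1 and 0.08 in sort 2.

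MHC class II genes present peptides and are made by crypt epithelium as well as immune cells. Of 7 measured members 6 rose (all genes tested: 7.01%), at a list median of 0.48. H2-Eb1 was at 0.91 and 0.45 in sort 1 and at 0.70 and 1.16 in sort 2, and Ciita, the master regulator of the class, was at 0.58 with arrays from 0.05 to 0.95. H2-Aa and H2-Ab1 were at 0.60 and 0.48. Interferon response genes rose in 0 and fell in 0 of 16 measured members, at a list median of -0.01 and with a range from -0.21 to 0.21. Of the 16, Irgm2 (0.21), Psmb9 (-0.21), Irf7 (-0.20) and Oas1a (-0.19) lay furthest from 0. Immediate early and heat shock genes rose in 5 of 23 and fell in 0 (all genes tested: 7.01% and 6.62%), at a list median of 0.01. Jun was at 0.85 and 0.996 in sort 1 and at 0.68 and 0.79 in sort 2. The other 4 were Hspa8 (0.43), Klf6 (0.41), Nr4a1 (0.32) and Myc, while Fos (0.01) and Egr1 (-0.22) did not pass.

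Markers of cells other than epithelium were few above background, and over all genes tested 7.01% rose and 6.62% fell. Of 15 T cell markers 5 were measured, at a list median of 0.03, and Lck (0.38) rose. Cd8b1 (0.06), Cd7 (0.03) and Ccl5 (-0.02) did not pass, and the spots of Ptprc, Cd247 and Cd8a were well above background on 0 arrays in both RNAs, while those of Cd3e were so on 1 of 4 arrays in GFPhi and 2 of 4 in GFPlo. Of 10 B and plasma cell markers 1 was measured, Cd79b, which fell by 0.35, and Cd79a and Ms4a1 were above background on 0 arrays. Of 12 myeloid markers 5 were measured, from Cd14 at 0.33 to Cd68 at -0.23, and 0 passed, at a list median of -0.10. Lyz2 (-0.10) and C1qb (-0.15) lay between them. Of 5 mast cell markers 1 was measured, Kit, which fell by 0.39, and the proteases Mcpt1, Mcpt2 and Cpa3 were above background on 0 arrays. Of 16 markers of stroma and endothelium 5 were measured, at a list median of -0.02. Vim fell among them, Acta2 (0.11), Vwf (0.06) and Tagln (-0.04) did not pass, and Col3a1, Pdgfra and Pecam1 were above background on 0 arrays. In the list of red cell genes 1 was measured, Hba-a1, at -0.48 and -0.54 in sort 1 and at 0.17 and 0.24 in sort 2. Hbb-bt, a haemoglobin gene outside that list, is described with the sort differences. Of 11 markers of epithelium 10 were measured, and Tjp1, the other one, had spots well above background on 2 of 4 arrays in each RNA. Among the 10, Krt8 (-0.53) and Krt19 (-0.54) fell and the others, such as Epcam (-0.31), Cdx2 (0.24) and Vil1, did not pass, at a list median of -0.14. The part of other cell types in the MHC class II values was not tested. In sorted pools such as these, fewer cells of a type and less RNA per cell cannot be told apart.

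All 1449 genes past the test had the same direction in each sort, which the test itself fixes. With 2 sorts of opposite sign the mean is no larger than the gene's own standard error. With the prior used here such a gene could not pass. For 3265 of 10630 genes (30.7%) both arrays of 1 sort lay on their own side of both arrays of the other, with 1649 ratios higher in sort 1 and 1616 higher in sort 2. Such an order is common among 4 values in 2 pairs, and nothing is read from this share. With 1 RNA pair per sort differences between the sorts have no test. A difference of 2-fold or more was seen for 8 genes, 3 higher and 5 lower in sort 1. Pyy, the hormone peptide YY of distal enteroendocrine cells, was at -2.41 and -2.42 in sort 1 and at -0.55 and -0.20 in sort 2. Its mean of -1.40 passed the test (limma adjusted p = 0.041) with an SE of 0.37. Fabp1, a fatty acid binding protein of proximal enterocytes, was at -1.69 and -1.75 in sort 1 and at -0.58 and -0.61 in sort 2. S100a14, a calcium-binding protein, was at -1.35 and -1.25 in sort 1 and at -0.34 and -0.54 in sort 2. These 3 were further below 0 in sort 1. Neurog3, Sis and the hormone genes Cck, Gip and Ghrl were further below 0 in sort 2. The hormone gene Gcg was alike in both, at -2.07 in sort 1 and -2.05 in sort 2. Whether the sorts differed in gut region was not tested.

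Other genes parted the sorts with a change of sign. The haemoglobin gene Hbb-bt was at -1.01 and -0.88 in sort 1 and at 0.54 and 0.07 in sort 2. Mgam, maltase-glucoamylase, was at 0.52 and 0.58 in sort 1 and at -0.20 and -0.43 in sort 2. Cox17, a copper chaperone, was at -0.62 and -0.33 in sort 1 and at 0.42 and 0.55 in sort 2. None of these 3 passed the test on the mean. Ambp and Mal2 were near 0 in sort 1 (means of 0.01 and -0.12) and low in sort 2 (means of -0.96 and -1.06). Apol10a was at -0.40 in sort 1 and -1.26 in sort 2, and Fam13a was at 0.59 and 1.46. For Lmnb1, Enoph1, Scaf1 and Ddit4 a single array made the difference. Lmnb1, lamin B1, was at 2.32 on the first array of sort 1 and between 0.19 and 0.26 on the other 3.

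Set beside the loss of Ascl2, the genes of bright cells were more often below control than genes in general. Of the 745 genes higher in GFPhi, 727 were measured on the deletion arrays, and 313 of these (43.1%) had a ratio of deleted over control below 0 on both days, against 26.4% of the 10469 genes tested in the sorts and measured in the deletion. The other way, 85 (11.7%) lay above 0 on both days, against 21.5%. Their median was -0.15 on day 3 and -0.15 on day 5, where all genes had -0.05 on day 3 and a value close to 0 on day 5. Of the 704 genes lower in GFPhi 702 were measured, and 116 (16.5%) lay below 0 on both days and 217 (30.9%) above, with medians of 0.12 and 0.04. The RNA of the deletion arrays is other RNA than that of the sorts, each day is 1 RNA pair, and these shares have no test. Genes of a cell type move together, so the genes are not independent of each other.

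Single genes of bright cells went different ways in the deletion. Lgr5 was at -0.52 on day 3 and -0.93 on day 5, Gkn3 at -1.25 and -1.57, and Olfm4 at -2.12 and -2.33. Tnfrsf19 was at -1.09 and -0.44 and Ephb3 at -1.19 and -0.41, so that both were further below control on day 3. Sp5 lay above control on both days, at 0.65 and 0.61, as did Rec8 at 0.73 and 1.86. Of the 20 highest named genes 11 lay below 0 on both days, 2 above and 7 changed sign. Over all genes measured 26.4% lay below on both days and 21.5% above. The crypt base list, Ascl2 itself included, had medians of -0.73 on day 3 and -0.41 on day 5. Among the 20 lowest named genes 7 lay below 0 on both days, 4 above and 9 changed sign. These 20 do not stand for all genes lower in GFPhi, of which 16.5% lay below 0 on both days and 30.9% above. Several genes were named by rank, and nothing is read from their counts. Several goblet cell genes among the 20 lowest were above control on day 3, while Agr2 and Ccl9 were below it. Muc2 was at 0.94 and 0.14, Tff3 at 1.24 and -0.31 and Clca1 at 1.38 and -0.23. Of the 24 measured enteroendocrine genes 10 lay below 0 on day 3 and 21 on day 5. Their medians were 0.16 and -0.25, where all genes tested had -0.05 and 0.0008. Cck was at -0.83 and -0.58 and Sct at 0.68 and -0.21.

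**Figure D4:**
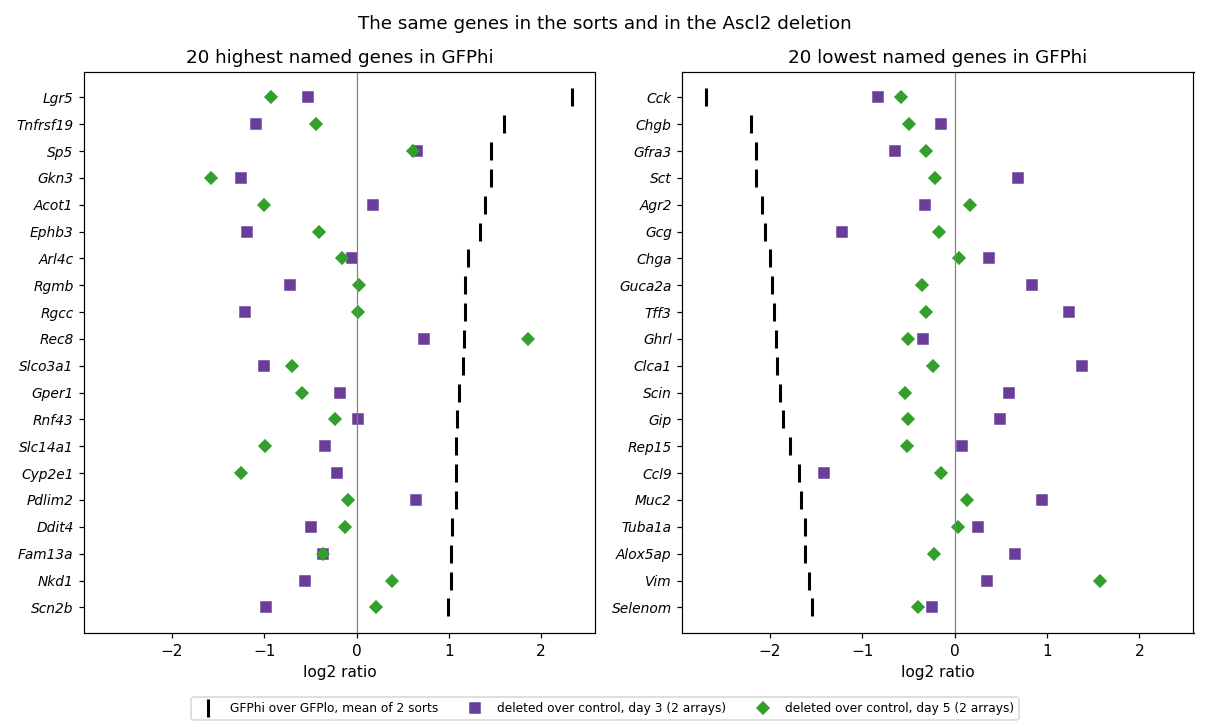
For the 20 highest and the 20 lowest named genes of the sorts, the black bar is the log2 ratio of GFPhi over GFPlo (mean of 2 sorts), and the purple squares and green diamonds are log2 ratios of Ascl2-deleted over control epithelium on day 3 and day 5 (x axis, mean of 2 arrays each). Of the 20 highest genes 11 have both symbols left of 0, with Sp5 and Rec8 right of it.

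The size of the ratios in sort 2 depends on how the background is modelled. On the 2 arrays of sort 2, 27 and 38 spots lay 50 or more intensity units below their local background, all of them marked by the scanner software as background outliers, against 0 on the arrays of sort 1. The values above come from normexp parameters fitted without marked spots. Fitted on all spots, the background mean of the sort 2 channels ran from -528 to -262 in place of 1.10 to 8.14, and the ratios of dim genes in that sort shrank towards 0. Dclk1 in sort 2 then had a mean of -0.10 in place of -1.15, Lgr5 of 1.61 in place of 2.57, and the number of genes past the limma test was 66 (30 higher, 36 lower), all of them among the 1449. On the signals that the scanner software had processed itself, sort 2 was not compressed, with Dclk1 at -3.91 in sort 1 and -3.85 in sort 2 and Lgr5 at 2.27 and 2.79. Dim genes were further from 0 there. The offset of 50 used here draws dim genes towards 0 by construction, and its share of this gap was not tested. Of the 32 list medians 22 moved by more than the spread between the sorts. The tuft list median was -2.04 in place of -0.66, the enteroendocrine median -2.29 in place of -1.14, the goblet median -1.76 in place of -1.02 and that of secretory progenitor genes -1.16 in place of -0.41. The Wnt target median was 0.83 in place of 0.55, while the crypt base median was 1.06 in place of 0.93. With normexp on all spots the enteroendocrine median was -0.61 and the tuft median -0.43. The number of genes past the test on processed signals was 803. The gap between the sorts in Pyy was seen in both treatments, at -2.79 in sort 1 and -0.83 in sort 2 on processed signals.

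**Figure D5:**
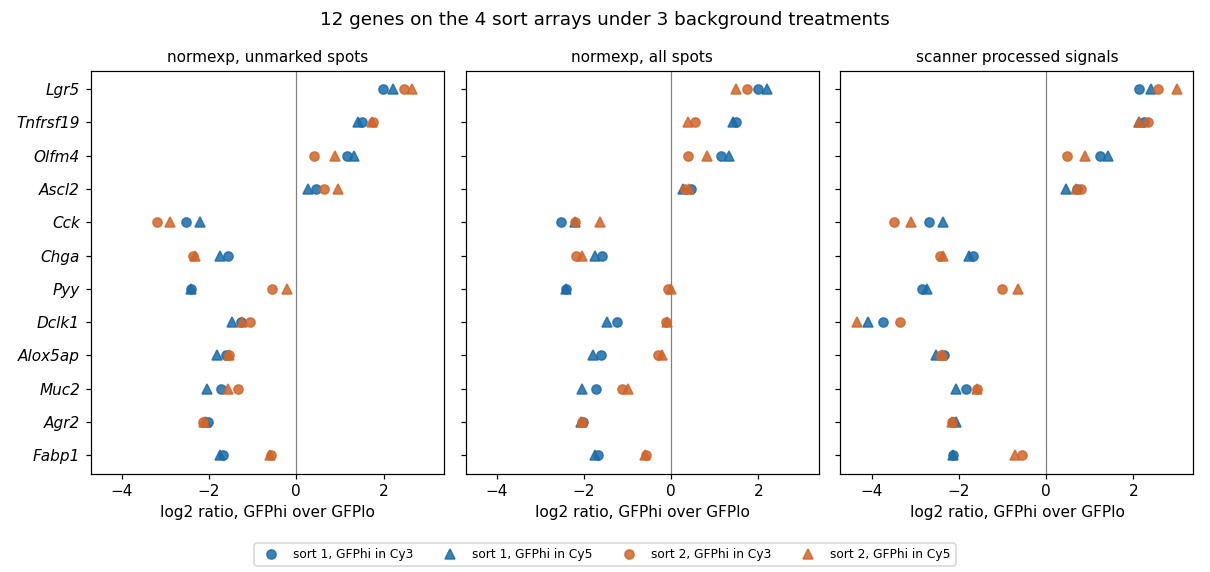
The log2 ratio of GFPhi over GFPlo (x axis) of 12 genes on the 4 sort arrays is drawn under 3 treatments of the background, with colour for the sort and symbol for the dye of GFPhi. In the middle panel, where all spots set the normexp parameters, the orange symbols of sort 2 fall to near 0 for Dclk1 and Alox5ap, while the left and right panels have both sorts side by side.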

How the data were processed

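Trizol RNA (500 ng) was amplified linearly and labelled, per the labels' protocols. Agilent Feature Extraction 9.5.3.1 (settings GE2-v5_95_Feb07) read the scans, and probes are placed on mm8 (NCBI36), per the file headers. Each array's deposited file gives intensity (mean foreground, median local background) and processed signal in both channels, and a log10 ratio, Cy5 over Cy3. Values in the authors' series matrix are log2 ratios, and they correlated at 0.964 or more with the scanner's ratios once those were turned by the labels. Any centring of that matrix is not given in the sources used.

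Background was corrected with normexp (offset 50) in limma 3.58.1 (R 4.3.3). Its parameters were fitted on spots without an outlier mark and then applied to all spots. This choice was made after the fit on all spots had been seen to shrink sort 2, and the fit on all spots is an added alternative. Loess within each array followed, with the 1639 control spots at weight 0 and outlier-marked spots left out, which left 52 tested genes with fewer than 4 arrays. Ratios were turned to GFPhi over GFPlo by titles and dye labels. The 43379 other spots gave 41174 probes. With RefSeq's gene table, 23483 of these were named by accession, 6678 by current and 2887 by older symbol, and 8126 kept the file's name. A gene is its brightest probe. Of the 439 genes past the test with more than 1 probe above the filter, 35 had probes of different sign.

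Dye-swapped arrays were averaged and the 2 sorts fitted with lmFit and eBayes (ratio against 0, prior of 7.13 degrees of freedom), without the deletion arrays. The script was tested on simulated data. The genes named are Lgr5, Ephb3, Sp5, Gkn3 and Ascl2, the 20 highest and 20 lowest that passed and whose 4 arrays had 1 sign, up to 4 members of each of 32 lists with the largest ratio, 9 set markers, up to 8 sort differences and up to 6 bounds in each direction. Other list members named were chosen after their values were seen. Accessions, clone names and predicted genes were passed over in naming. The members and lists were chosen with earlier results of these data known. Each sort is on its own slide, so slide and sort cannot be told apart, while both RNAs share every array. Alternatives tried were processed signals, matrix values, no background subtraction, median centring, other filters, the mean of all probes, the joint fit with the deletion, a random block for the sort (statmod 1.5.0), trended and robust eBayes, and each sort left out. Tables were handled with data.table, version 1.17.8.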

Additional observations from a re-analysis of the deposited data

Results flagged for a closer look

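Among the 158 named genes, 9 had 1 of the 4 sort arrays that stood apart from the other 3 by Dixon's criterion at 95%. Chance alone gives about 1 such gene in 20 where genes are not picked by their array values. The 2 arrays of a sort share their RNA. Lmnb1, Enoph1, Scaf1 and Ddit4 were picked for a large difference between the sorts, so that rate does not hold for them. Lmnb1 was at 2.32 on the first array of sort 1 and at 0.19 to 0.26 elsewhere. Enoph1 was at -2.58 on that array and at -0.23 to -0.12 elsewhere, and Ddit4 at 2.20 and at 0.51 to 0.74. Scaf1 was at 2.06 on the second array of sort 2 and at -0.12 to 0.13 elsewhere. In these 4 genes the array that stood apart was more than 2-fold from the others, and of the 4 only Ddit4 passed the test on the mean. Sdhb was at -0.87 on the second array of sort 2 (others -0.21 to -0.15), and Tagln was at 0.48 on that array (others -0.28 to -0.17). Smoc2 was at 0.84 on the first array of sort 1 (others 0.42 to 0.45), Dmbt1 at -1.29 on it (others -1.52 to -1.48), and Acot1 at 1.64 on the first array of sort 2 (others 1.28 to 1.33). All 4 arrays of Smoc2, Dmbt1 and Acot1 had the direction of the mean.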

How the results depend on the processing

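All 1449 genes past the test kept their direction under every alternative that measured them, except 1 of them under the mean of all probes. With 1 sort left out the test itself fixes this direction. The joint, trended and robust fits use the same mean ratios, so the direction under these alternatives is no support. The number past the limma test did not hold as well. It was 803 (386 higher, 417 lower) on processed signals, 806 (420 and 386) on the series matrix and 650 (276 and 374) with median centring, and 66 (30 and 36) with normexp parameters from all spots, an alternative added after seeing the data, under which 30 of the 158 named genes passed in place of 115. With the 4 arrays fitted singly and the sort as a replicate block it was 2362 (1240 and 1122). The correlation between arrays of a sort in that fit was -0.32. A value below 0 makes the mean of a sort look more precise, so the larger count is no added support. The ratio on each array already sets the 2 RNAs of a sort against each other, and slide and sort coincide. In the joint fit with the deletion pairs, whose day difference enters the spread, the number past the test was 0 (0 and 0), and 0 named genes passed. Without replicate 1 and without replicate 2 it was 0 to 0 for all genes, for each direction and for the named genes, and the genes within 2-fold of equal were 5811 to 6244. These were 6886 on the series matrix, which holds fewer genes, and 27381 without a filter, which tests more. Sort differences of 2-fold or more numbered 108 on processed signals, 13 with median centring and 36 with normexp on all spots. The cause of these shifts was not tested where none is given.

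Named genes near 0 changed sign. On processed signals Cox17 was at -0.19 and Tiparp at 0.26, on the matrix Cox17 at -0.024, without background subtraction Tiparp at 0.012, with median centring Cox17 at -0.014, with the mean of probes Cox17 at -0.030 and Ccl5 at 0.019, and with normexp on all spots Tiparp at 0.040, Ccl5 at 0.00065 and Lyz1 at 0.015. With 1 sort left out, the genes whose sign changed ran from -0.046 to 1.10 for Scaf1, -0.32 to 0.55 for Mgam, -0.33 to 0.51 for Mcm4, -0.041 to 0.17 for Vwf, -0.024 to 0.15 for Cd8b1, -0.47 to 0.48 for Cox17, -0.10 to 0.088 for Tiparp, -0.073 to 0.033 for Ccl5, -0.15 to 0.10 for Lyz1, -0.22 to 0.15 for Tagln, -0.51 to 0.20 for Hba-a1, -0.65 to 0.12 for Defa21, -0.94 to 0.30 for Hbb-bt and -0.96 to 0.012 for Ambp.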
